A study of Mus musculus with 6 samples.

Results

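The aldehyde dehydrogenases (Aldh), the alcohol dehydrogenases (Adh) and the aldo-keto reductases (Akr) were examined in hypoxic mouse kidney. Members were the protein-coding genes of the count table whose name begins with Aldh, Adh or Akr followed by a digit. A gene of this pattern was left out and is not reported here. The members were 43 of 54532 named genes, namely 21 Aldh, 5 Adh and 17 Akr genes. They were chosen by name, but with earlier results of these data known.

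Kidney mRNA was sequenced from mice labelled Lpar3-/-, without the lysophosphatidic acid receptor LPAR3 according to their label, and from mice labelled WT. Before harvest all mice had spent 12 h in a normobaric chamber at 8% oxygen, and each genotype had 3 libraries. Both genotypes were hypoxic and no normoxic kidney was analysed here, so the values show no response to hypoxia. Age, sex, strain and the nature of the allele are not given in the labels. Whether each library is a different animal is not said either, and the p-values therefore measure only how far these libraries spread, which may be technical.

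These enzymes share the handling of carbonyl groups. Alcohol dehydrogenases oxidize alcohols to aldehydes, aldehyde dehydrogenases oxidize aldehydes to acids, and aldo-keto reductases mostly run the other way, turning aldehydes and ketones into alcohols with NADPH. In the kidney they clear reactive aldehydes of lipid peroxidation, make retinoic acid, break down amino acids, make sorbitol as an osmolyte of the medulla and interconvert steroids. In the mouse several of them lie in gene clusters that arose by duplication.

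The libraries held 15953794 to 17940438 counts. Lpar3 itself did not set the groups apart, with 672, 592 and 580 counts in the libraries labelled Lpar3-/- and 645, 634 and 577 in the WT libraries (log2 fold change 0.0033, 95% interval -0.17 to 0.18), so the first group is called by its label throughout. The counts are per gene and cannot show a missing exon. The chi-square of the counts of WT replicate 1, per degree of freedom, was 7.73 to 8.86 against the libraries labelled Lpar3-/- and 12.0 to 12.8 against the other WT libraries, which were themselves 12.4 apart. The libraries labelled Lpar3-/- were 4.21 to 7.14 apart, nearer to each other than WT replicate 1 was to any of them. Values without WT replicate 1 are given where they change a call. Markers of the first segments of the proximal tubule summed to 9653 to 10351 CPM (counts scaled to a common library depth) in libraries labelled Lpar3-/- and 9296 to 10404 CPM in WT libraries, as the tissue label implies. Behind these sums, 5 of the 10 markers had a positive and 5 a negative log2 fold change, from -0.30 for Slc5a2 to 0.38 for Slc5a12. An unadjusted p under 0.05 was found for 5 of them, where 9.18% of all tested genes had one, and 0 were called. Some markers in other lists were unequal between the groups too. Loop of Henle markers summed to 5909 to 6181 CPM in the libraries labelled Lpar3-/- and 4778 to 5405 CPM in WT. Collecting duct markers summed to 1034 to 1156 CPM and 987 to 1026 CPM in the same order, with 5 positive and 3 negative fold changes. Among the markers of the third proximal segment, Cyp7b1, a steroid hydroxylase, was called lower, with 84.0 ± 15.0 CPM in the libraries labelled Lpar3-/- and 163 ± 43.5 CPM in WT (SD, n = 3 each, edgeR adjusted p = 0.0357). Of the 7 markers of that segment 4 had a negative and 3 a positive fold change. Their sums overlapped, with 1237 to 1322 CPM in the libraries labelled Lpar3-/- and 1198 to 1637 CPM in WT. Fold changes were negative for 7 of 8 fibroblast markers and for all tested fat cell and macrophage markers, and the part of these cells in the results was not tested except where a value is given.

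Among the members, 1 fell and none of the other tested members passed the test. Aldh3b1, which encodes an enzyme that oxidizes lipid-derived aldehydes, stood 1.52-fold lower in libraries labelled Lpar3-/- than in WT libraries. Of the 43 members, 37 passed the expression filter and were tested by edgeR's quasi-likelihood test with Benjamini-Hochberg adjustment over the 15225 genes tested. One called lower is 2.70% of the tested members, where 0.25% of all tested genes were called lower, and 0 members were called higher, where 0.125% of all tested genes were. An unadjusted p under 0.05 was found for 13 members (35.1%), where 9.18% of all tested genes had one. Of these members 7 were on the higher side, where 3.97% of all tested genes were, and 6 on the lower side, where 5.21% were. The 3 libraries of one group lay wholly above the other 3 for 11 members (29.7%), where this held for 13.7% of all tested genes. DESeq2 called 5 members, 3 higher and 2 lower, but it called 171 genes in all, where edgeR called 57. Among the members limma-voom called Aldh3b1 alone.

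Fold changes of the members lay on both sides of 0. Of the 37 tested, 19 had a positive and 18 a negative log2 fold change of the libraries labelled Lpar3-/- over WT, with a median of 0.0037. Over all tested genes 48.9% were positive, and the median was -0.0036. The log2 fold changes of the members ran from -0.66 for Aldh18a1 to 1.59 for Akr1c20. In bulk tissue, as here for Aldh3b1, fewer cells of a type and less RNA per cell cannot be told apart.

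**Figure D1:**
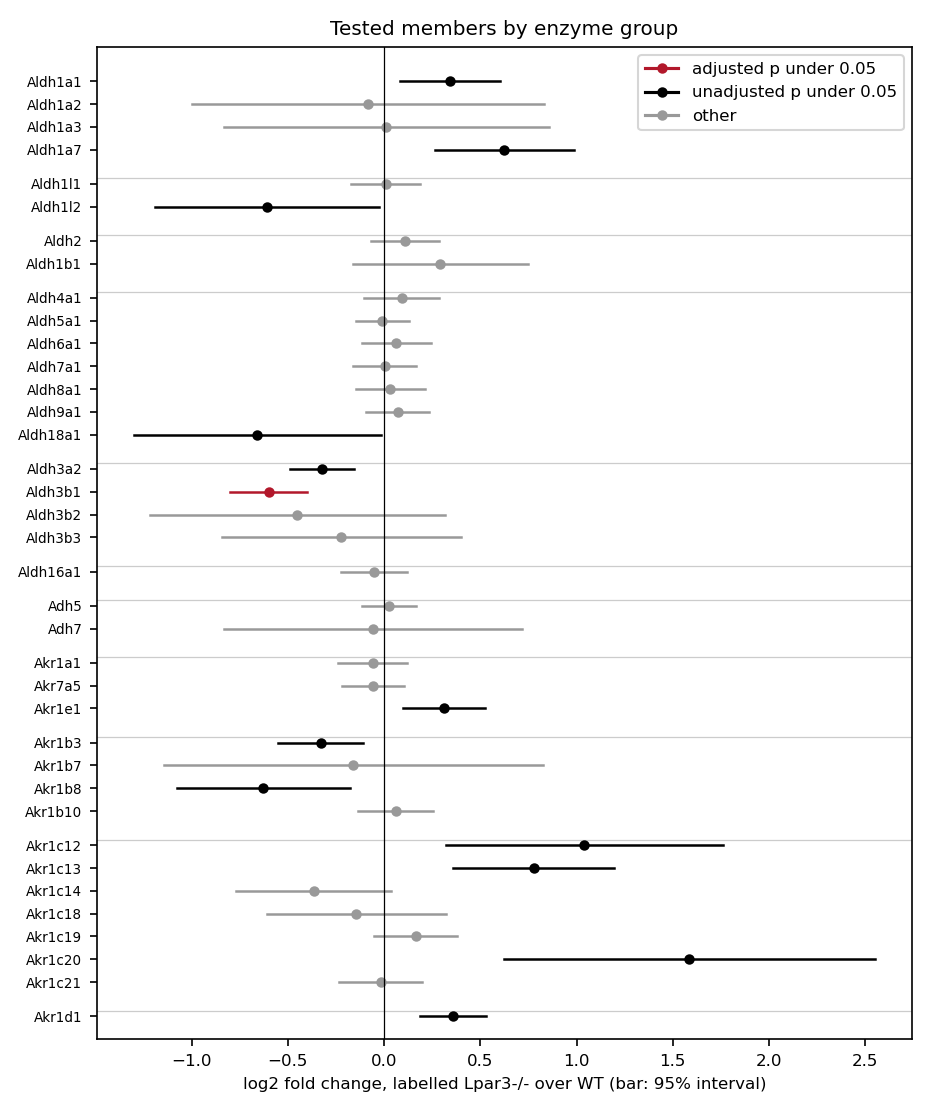
Log2 fold change of the 37 tested members, libraries labelled Lpar3-/- over WT, with 95% intervals, in enzyme groups separated by grey lines. Aldh3b1 (-0.60) is the called member, 12 others in black have an unadjusted p under 0.05, and the members Adh5 and Aldh5a1 have short intervals around 0.

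The levels of the members spanned several orders of magnitude. Per gene length, in the authors' FPKM, which scale fragment counts by gene length and library depth, 7 members averaged at least 100, 21 at least 10, 8 from 1 to 10 and 14 under 1. Akr1a1, which encodes aldehyde reductase, was the most abundant. It took 26.3% to 27.1% of the summed FPKM of all members in the libraries labelled Lpar3-/- and 26.5% to 28.0% in the WT libraries. Akr1a1, Aldh9a1, Akr7a5, Aldh6a1 and Aldh2 together took 61.8% to 63.2% and 60.8% to 62.7%, again with the libraries labelled Lpar3-/- first. The sum over all members was 2163 ± 55.9 FPKM in the libraries labelled Lpar3-/- and 2176 ± 135 FPKM in the WT libraries (SD, n = 3 each).

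**Figure D2:**
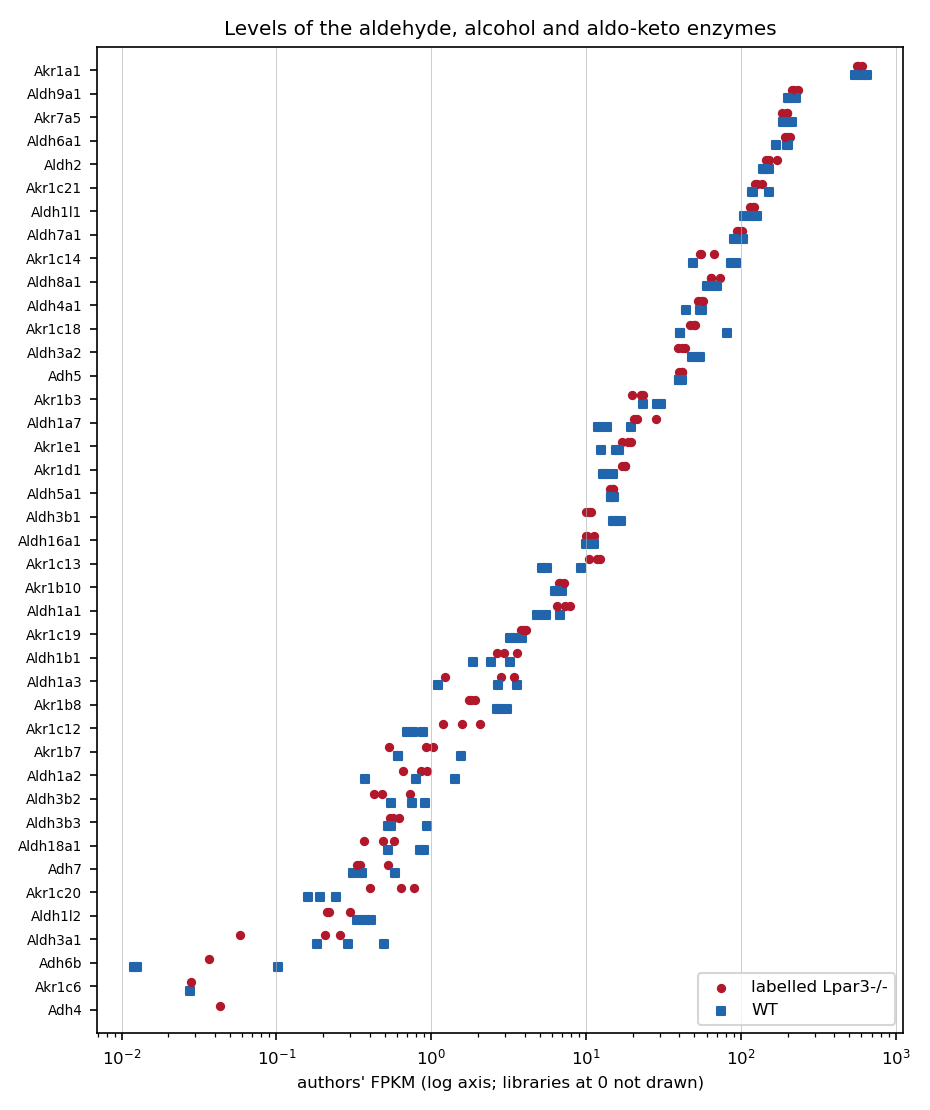
FPKM of the 41 members with any count, per library, on a log axis, with the libraries labelled Lpar3-/- as red circles above the WT libraries as blue squares. Akr1a1 averages 588 FPKM at the top, and Adh4, Akr1c6 and Adh6b at the bottom rest on a few counts.

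At a cut of 50 FPKM the members with the lowest p were not the abundant ones. Of the 12 tested members averaging at least 50 FPKM, 0 had an unadjusted p under 0.05, and of the 25 below that level 13 had. The split depends on the cut, since Aldh3a2 (46.6 FPKM, edgeR unadjusted p = 0.00115) lay just below it and Akr1c18 (51.6 FPKM) just above. Leaving out Akr1c14 and Akr1c18, whose WT libraries were spread widely, the log2 fold changes of the other 10 abundant members lay between -0.060 and 0.11. Their 95% intervals together ran from -0.24 to 0.29. The WT libraries were also more variable. For 24 of the 26 tested members averaging at least 10 CPM, the coefficient of variation was larger in WT, with a median of 4.39% in the libraries labelled Lpar3-/- and 8.80% in WT.

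The fatty aldehyde dehydrogenases, which oxidize long-chain aldehydes from membrane lipids, were the group that held the called member. Their summed level was 53.3, 55.2 and 50.9 FPKM in replicates 1 to 3 labelled Lpar3-/-, against 66.5, 70.5 and 70.4 FPKM in the WT libraries, and the groups did not overlap. Aldh3a2 averaged 41.5 FPKM of a mean sum of 53.1 in the libraries labelled Lpar3-/- and 51.8 FPKM of 69.1 in WT. Aldh3b1 averaged 10.4 and 15.7 FPKM in the same order, so the gap in the sum was mostly that of these genes. All 4 tested members had a negative log2 fold change, 2 of them with an unadjusted p under 0.05, and Aldh3b1 was the one called.

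Aldh3b1 (ENSMUSG00000024885, GRCm38 chromosome 19, 3913493 to 3929761, minus strand) had 354, 298 and 341 counts in the libraries labelled Lpar3-/- and 566, 474 and 478 counts in the WT libraries. At equal depth these were 20.2, 18.8 and 19.7 CPM in the libraries labelled Lpar3-/- and 31.9, 28.0 and 28.9 CPM in WT. Each library labelled Lpar3-/- lay below each WT library, and the gap between the groups was wider than the range within either. This is a log2 fold change of -0.60 (SE 0.091, 95% interval -0.80 to -0.40, edgeR adjusted p = 0.0136), and the gene ranked 29 of 15225 by p. Without replicate 1, 2 or 3 labelled Lpar3-/- the adjusted p was 0.0799, 0.0969 and 0.111 (edgeR), at log2 fold changes of -0.62, -0.57 and -0.60. Without any one WT library the call held, with an adjusted p of at most 0.0456. By limma on log2(FPKM + 1) and log2(FPKM + 0.1) the adjusted p was 0.104 and 0.0646. Of the stretches of 50 bases in its transcripts, 8.97% also occur in transcripts of other genes, 8.17% in those of the neighbouring Aldh3b3.

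Markers of fat cells and macrophages had lower mean values beside Aldh3b1. The 9 fat cell markers summed to 145 to 241 CPM in the libraries labelled Lpar3-/- and 228 to 449 CPM in WT, ranges that overlapped, and all 8 tested had a negative fold change. Adipoq, which encodes adiponectin, had 1.99, 5.67 and 3.24 CPM in the libraries labelled Lpar3-/- against 14.2, 10.1 and 6.05 CPM in WT (edgeR adjusted p = 0.122). The 8 macrophage markers summed to 206 to 232 CPM in the libraries labelled Lpar3-/- and 233 to 465 CPM in WT, ranges that met without overlapping, again with all 8 fold changes negative. An unadjusted p under 0.05 was found for 7 of the fat cell and 4 of the macrophage markers, and no marker of either list passed after adjustment by edgeR. With the level of the fat cell markers as a covariate the log2 fold change of Aldh3b1 was -0.59 (SE 0.16, edgeR adjusted p = 0.684), and with that of the macrophage markers -0.67 (SE 0.12, adjusted p = 0.0642). Both fits were chosen after seeing the data.

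Aldh3a2 encodes the fatty aldehyde dehydrogenase of the endoplasmic reticulum, whose loss causes Sjögren-Larsson syndrome in humans. It was the most abundant of the group. It had 234, 247 and 222 CPM in the libraries labelled Lpar3-/- and 272, 307 and 301 CPM in the WT libraries. The groups did not overlap, but the log2 fold change of -0.32 (SE 0.076) did not pass the test (edgeR adjusted p = 0.115). It passed by DESeq2 (adjusted p = 0.00776) and, by edgeR, without WT replicate 1 (adjusted p = 0.0493).

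The remaining members of the group were low. Aldh3b3 averaged 2.42 ± 0.164 CPM in the libraries labelled Lpar3-/- and 2.83 ± 1.00 CPM in WT, and Aldh3b2 averaged 1.17 ± 0.350 and 1.60 ± 0.397 CPM in the same order (SD, n = 3 each). Of the transcript stretches of Aldh3b2, 23.5% also occur in Aldh3b3, so their counts are less certain. Aldh3a1, an abundant enzyme of the cornea, had 2, 8 and 7 counts in the libraries labelled Lpar3-/- and 10, 6 and 16 in WT and was not tested.

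The promoters of Aldh3b1 and Aldh3a2 are shown because both genes had lower values in each library labelled Lpar3-/-. They are the 250 bases before and 50 after the annotated start, from RefSeq on GRCm38.p6, at chr19:3929729-3930028 (minus strand) and chr11:61267137-61267436 (minus strand). Capitals mark the core of the hypoxia response element, ACGTG or GCGTG on either strand.
Aldh3b1: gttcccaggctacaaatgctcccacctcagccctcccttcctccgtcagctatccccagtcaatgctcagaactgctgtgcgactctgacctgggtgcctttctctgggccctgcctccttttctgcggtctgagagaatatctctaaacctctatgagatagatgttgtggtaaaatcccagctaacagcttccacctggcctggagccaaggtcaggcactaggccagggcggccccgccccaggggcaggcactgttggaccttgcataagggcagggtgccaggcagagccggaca
Aldh3a2: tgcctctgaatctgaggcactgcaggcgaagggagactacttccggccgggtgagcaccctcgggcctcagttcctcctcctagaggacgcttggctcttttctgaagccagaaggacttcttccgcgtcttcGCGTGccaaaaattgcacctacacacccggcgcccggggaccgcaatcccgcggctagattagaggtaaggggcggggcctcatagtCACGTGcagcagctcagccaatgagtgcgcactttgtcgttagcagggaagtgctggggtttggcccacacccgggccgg
Aldh3a2 has 3 matches, of which 2 overlap as the palindrome CACGTG, and Aldh3b1 has none. Such a match is in 43.8% of all 32851 promoters of the table and in 16 of the 37 promoters listed for members (43.2%), which belong to 34 of the 43 members. The core of the antioxidant response element, TGACNNNGC on either strand, was in neither promoter, in 12.4% of all promoters and in 5 of the 37 (13.5%). A match describes the letters of the window and shows no binding.

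The retinaldehyde dehydrogenases make retinoic acid from retinaldehyde. They were summed together with Aldh1a7, a rodent gene next to Aldh1a1 and close to it in sequence. The sum was 38.0, 32.2 and 31.1 FPKM in the libraries labelled Lpar3-/- and 30.0, 20.03 and 22.0 FPKM in the WT libraries. Aldh1a7 alone averaged 23.2 FPKM of a mean sum of 33.8 in the libraries labelled Lpar3-/-. In WT it averaged 15.0 FPKM of 24.0, so the gap in the sum was mostly that of Aldh1a7. In this sum the groups did not overlap, although WT replicate 1 came close to the lowest library labelled Lpar3-/-.

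Aldh1a7 (ENSMUSG00000024747, chromosome 19, 20692953 to 20727562, minus strand) had 58.3, 44.0 and 42.7 CPM in the libraries labelled Lpar3-/- and 40.4, 24.9 and 28.6 CPM in WT. Its log2 fold change was 0.63 (SE 0.16, edgeR adjusted p = 0.187). It was past the threshold by DESeq2 (adjusted p = 0.0122) and, by edgeR, without WT replicate 1, where the log2 fold change was 0.85 (adjusted p = 0.0127). Over 18 settings, those with the fat cell and the macrophage covariate among them, the log2 fold change of Aldh1a7 ran from 0.32 to 0.85. The lowest value, 0.32 (SE 0.20, edgeR adjusted p = 0.665), came with the macrophage markers as a covariate. The summed level of these markers did not overlap between the groups, so that fit can hardly tell marker level and label apart.

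Aldh1a1 (ENSMUSG00000053279, chromosome 19, 20492715 to 20643462, plus strand) had 39.0, 36.1 and 32.5 CPM in the libraries labelled Lpar3-/- and 33.5, 27.3 and 23.9 CPM in WT. Here the groups overlapped, since WT replicate 1 lay above replicate 3 labelled Lpar3-/-. The log2 fold change was 0.34 (SE 0.12, edgeR adjusted p = 0.364). Without WT replicate 1 it was 0.48 (edgeR adjusted p = 0.0691). In both genes replicate 1 was the highest library of its group. Of the transcript stretches, 7.49% of those of Aldh1a7 occur in Aldh1a1 and 3.06% of those of Aldh1a1 in Aldh1a7, so reads may be shared in part.

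The promoters of this pair show how near the neighbours are in sequence. They lie at chr19:20601718-20602017 (plus strand, the second of the starts listed for Aldh1a1) and chr19:20727507-20727806 (minus strand), and capitals mark positions with the same base in both when aligned without gaps.
Aldh1a1: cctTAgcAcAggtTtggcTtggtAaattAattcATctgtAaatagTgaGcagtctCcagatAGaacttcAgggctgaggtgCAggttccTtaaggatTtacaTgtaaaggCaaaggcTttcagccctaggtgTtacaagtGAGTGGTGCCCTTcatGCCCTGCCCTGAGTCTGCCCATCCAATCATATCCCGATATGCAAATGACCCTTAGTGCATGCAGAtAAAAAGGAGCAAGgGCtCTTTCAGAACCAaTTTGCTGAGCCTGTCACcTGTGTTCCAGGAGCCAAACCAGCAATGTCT
Aldh1a7: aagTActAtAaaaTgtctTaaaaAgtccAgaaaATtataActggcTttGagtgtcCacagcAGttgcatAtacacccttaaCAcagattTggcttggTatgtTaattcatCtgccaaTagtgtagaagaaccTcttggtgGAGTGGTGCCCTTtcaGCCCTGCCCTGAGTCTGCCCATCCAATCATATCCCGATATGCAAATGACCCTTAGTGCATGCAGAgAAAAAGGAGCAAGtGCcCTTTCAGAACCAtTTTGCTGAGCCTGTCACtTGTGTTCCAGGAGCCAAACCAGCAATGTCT
They share 177 of 300 positions (59%), 142 of the 150 nearest the start against 35 of the 150 farther away, with an unbroken run of 65 identical bases. The other 34 promoter pairs within the Aldh1a, Aldh3b, Akr1b and Akr1c groups were 19.3% to 31.7% identical without a shift, a range that holds Akr1c12 and Akr1c13 (25%), which are nearer to each other than this pair once shifted.

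The retinaldehyde dehydrogenases other than Aldh1a1 were lower in level and varied between libraries. Aldh1a3 had 5.70, 13.2 and 16.01 CPM in the libraries labelled Lpar3-/- and 16.7, 5.15 and 12.6 CPM in WT, so each group held both low and high libraries. The 2 libraries lowest in Aldh1a3, replicate 1 labelled Lpar3-/- and WT replicate 2, also had the lowest summed levels of 7 urothelial markers in the libraries labelled Lpar3-/- (12.5 CPM of 12.5 to 27.8) and in WT (14.2 CPM of 14.2 to 27.4). The highest libraries did not match in this way. Aldh1a3 was highest in replicate 3 labelled Lpar3-/- and in WT replicate 1. The urothelial sums were highest in replicate 2 labelled Lpar3-/- (27.8 CPM) and WT replicate 3 (27.4 CPM). The part of urothelium in this spread was not tested. Aldh1a2, the enzyme of mesothelium and embryonic mesoderm, had 1.94, 2.14 and 1.503 CPM in the libraries labelled Lpar3-/- and 0.847, 3.25 and 1.81 CPM in WT.

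The mitochondrial and amino acid dehydrogenases held most of the aldehyde dehydrogenase transcripts and differed little. Aldh6a1, which oxidizes the methylmalonate semialdehyde of valine breakdown, had 1148, 1198 and 1120 CPM in the libraries labelled Lpar3-/- and 1153, 1170 and 991 CPM in WT (log2 fold change 0.065, SE 0.081). Aldh2, the main acetaldehyde dehydrogenase, had 882, 750 and 785 CPM in the libraries labelled Lpar3-/- and 789, 715 and 740 CPM in WT (0.11, SE 0.081). Both sets overlapped, and the 95% intervals allow log2 fold changes up to 0.24 and 0.28.

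Aldh9a1, an enzyme of carnitine synthesis, had 788, 749 and 729 CPM in the libraries labelled Lpar3-/- and 699, 772 and 685 CPM in WT (log2 fold change 0.071, SE 0.075). Aldh7a1, which acts in lysine breakdown, averaged 507 ± 21.4 CPM in the libraries labelled Lpar3-/- and 506 ± 32.6 CPM in WT. Aldh8a1, of the kynurenine pathway, averaged 296 ± 21.0 and 290 ± 23.1 CPM in the same order (SD, n = 3 each). None of these differed by more than the spread between libraries. Aldh4a1, of proline breakdown, averaged 272 ± 10.4 CPM in the libraries labelled Lpar3-/- and 256 ± 30.7 CPM in WT, but 30.0% of its transcript stretches also occur in Gm21969, a gene annotated over the same exons. Aldh5a1, which removes succinate semialdehyde, was steady, with 83.5 ± 1.56 CPM in the libraries labelled Lpar3-/- and 84.0 ± 2.21 CPM in WT.

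Aldh18a1 runs the other way in this pathway, as it makes the precursor from which proline is built. It was low, with 1.99, 1.51 and 2.37 CPM in the libraries labelled Lpar3-/- and 2.14, 3.67 and 3.51 CPM in WT. WT replicate 1 lay among the libraries labelled Lpar3-/-, and the log2 fold change of -0.66 (SE 0.29) did not pass (edgeR adjusted p = 0.529), nor did that of -0.87 without WT replicate 1 (adjusted p = 0.241). Aldh1b1, a mitochondrial relative of Aldh2, averaged 7.10 ± 1.06 CPM in the libraries labelled Lpar3-/- and 5.80 ± 1.53 CPM in WT. Aldh16a1 averaged 59.1 ± 3.93 CPM in the libraries labelled Lpar3-/- and 61.3 ± 3.88 CPM in WT (SD, n = 3 each).

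The folate enzymes of the family release carbon dioxide from formyl-folate. The cytosolic one, Aldh1l1, had 543, 521 and 550 CPM in the libraries labelled Lpar3-/- and 581, 478 and 546 CPM in WT (log2 fold change 0.0088, SE 0.082). The mitochondrial one, Aldh1l2, had 1.59, 1.64 and 2.25 CPM in the libraries labelled Lpar3-/- and 2.82, 2.49 and 3.08 CPM in WT, groups that did not overlap (log2 fold change -0.61, SE 0.27, edgeR adjusted p = 0.519). Its counts of 26 to 51 a library limit the precision, and an exon of it overlaps one of D10Wsu102e on the opposite strand.

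The 5 alcohol dehydrogenases examined all lie on chromosome 3, from 7.77 to 7.99 Mb upstream of Lpar3. Adh5, which encodes the glutathione-dependent formaldehyde dehydrogenase that also reduces S-nitrosoglutathione, was the one of these 5 that was well expressed. Adh5 (ENSMUSG00000028138, chromosome 3, 138443093 to 138455499, plus strand) had 227, 225 and 218 CPM in the libraries labelled Lpar3-/- and 217, 225 and 217 CPM in WT. The groups overlapped, with a log2 fold change of 0.024 (SE 0.065, 95% interval -0.12 to 0.17, edgeR adjusted p = 0.952).

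The other alcohol dehydrogenases examined were at or near the limit of detection. Adh7, the retinol-active enzyme of the stomach lining, had 23, 32 and 22 counts in the libraries labelled Lpar3-/- and 24, 20 and 37 counts in WT (log2 fold change -0.058, SE 0.35). Adh6b had 3, 0 and 0 counts in the libraries labelled Lpar3-/- and 1, 1 and 8 counts in WT, and Adh4 had 1 count in 1 library labelled Lpar3-/-. Adh6a had 0 counts in each library, which allows up to 3 counts or 0.167 to 0.188 CPM a library for counting error alone. Of these, only Adh7 passed the filter on low counts.

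The aldo-keto reductases of broad aldehyde specificity were abundant and overlapped between groups. Akr1a1, which in the mouse also makes the gulonate from which vitamin C is built, had 1658, 1575 and 1555 CPM in the libraries labelled Lpar3-/- and 1690, 1792 and 1507 CPM in WT (log2 fold change -0.060, SE 0.081). Akr7a5, which reduces the dialdehyde of aflatoxin, had 359, 357 and 332 CPM in the libraries labelled Lpar3-/- and 363, 387 and 341 CPM in WT (-0.058, SE 0.074). Akr1e1, which reduces anhydrofructose, was set apart by group. It had 68.2, 62.1 and 71.8 CPM in the libraries labelled Lpar3-/- and 57.1, 59.6 and 46.1 CPM in WT. Those groups did not overlap, and its log2 fold change of 0.31 (SE 0.098) did not pass the test (edgeR adjusted p = 0.299).

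Aldose reductase, the product of Akr1b3, turns glucose into sorbitol. Akr1b3 (ENSMUSG00000001642, chromosome 6, 34302434 to 34317478, minus strand) had 165, 196 and 192 CPM in the libraries labelled Lpar3-/- and 241, 197 and 256 CPM in WT. The groups touched without overlapping, because replicate 2 labelled Lpar3-/- and WT replicate 2 were nearly equal. The log2 fold change was -0.33 (SE 0.10, edgeR adjusted p = 0.288), and it was -0.43 and past the threshold without WT replicate 2 (adjusted p = 0.0482). Of its transcript stretches 9.48% occur elsewhere, mostly in Gm6644.

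The other Akr1b genes lie beside it on chromosome 6. Akr1b8, a growth factor-inducible relative, had 2.73, 2.65 and 2.89 CPM in the libraries labelled Lpar3-/- and 4.12, 4.62 and 4.05 CPM in WT, which did not overlap. Its log2 fold change was -0.63 (SE 0.21, edgeR adjusted p = 0.328), on 42 to 78 counts a library. Akr1b10 had 24.1, 23.9 and 25.5 CPM in the libraries labelled Lpar3-/- and 25.1, 22.2 and 23.2 CPM in WT, and these overlapped. Akr1b7, known from the vas deferens and the adrenal cortex, had 12 to 21 counts in the libraries labelled Lpar3-/- and 13 to 34 in WT. Adrenal markers summed to 4.73 to 5.55 CPM in the libraries labelled Lpar3-/- and 5.25 to 6.71 CPM in WT, and Cyp11b1, Cyp11b2, Cyp21a1, Nr5a1 and Hsd3b6 had 0 counts in all 6 libraries.

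**Figure D3:**
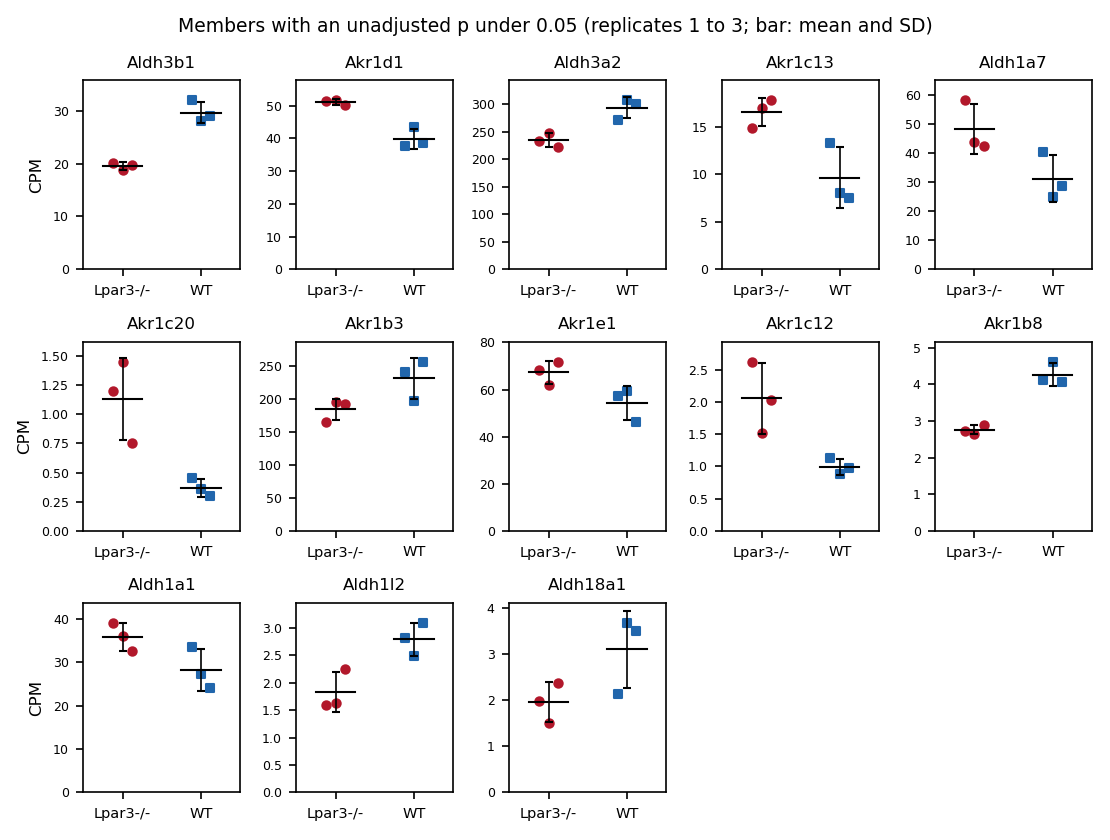
CPM per library of the 13 members with an unadjusted p under 0.05, ordered by p, libraries labelled Lpar3-/- left and WT right, with mean and SD. In 11 panels the groups do not overlap, and in those of Aldh1a1 and Aldh18a1 WT replicate 1, the left square, reaches into the range of the libraries labelled Lpar3-/-.

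The Akr1c genes encode hydroxysteroid dehydrogenases and related reductases and, with Akr1e1, form a cluster of 9 genes over 0.56 Mb of chromosome 13. Of the 8 tested, 4 had an unadjusted p under 0.05 and higher values in the libraries labelled Lpar3-/-, where 3.97% of all tested genes did. None of the 4 passed the test after adjustment. The abundant members of the cluster were not among them, Akr1e1 being the highest of the 4 with a mean of 16.6 FPKM.

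Akr1c13 (ENSMUSG00000021213, chromosome 13, 4191150 to 4205596, plus strand) had 262, 270 and 308 counts in the libraries labelled Lpar3-/- and 236, 136 and 125 counts in WT. At equal depth these were 14.9, 17.0 and 17.8 CPM in the libraries labelled Lpar3-/- and 13.3, 8.05 and 7.56 CPM in WT. WT replicate 1 stood well above the other WT libraries and just below the lowest library labelled Lpar3-/-. The log2 fold change was 0.78 (SE 0.19, edgeR adjusted p = 0.143). It was 1.09 without WT replicate 1 (edgeR adjusted p = 0.00543), and 0.78 by DESeq2 (adjusted p = 0.0148).

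Akr1c12, its near copy, had 46, 24 and 35 counts in the libraries labelled Lpar3-/- and 20, 15 and 16 in WT. That is 2.62, 1.51 and 2.02 CPM in the libraries labelled Lpar3-/- against 1.13, 0.888 and 0.968 CPM in WT, with a log2 fold change of 1.04 (SE 0.33, edgeR adjusted p = 0.304). Of the transcript stretches, 28.6% of those of Akr1c12 occur in Akr1c13 and 24.2% of those of Akr1c13 in Akr1c12, so these genes may share reads and their values are not independent.

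The promoters of this pair are alike too, and lie at chr13:4279350-4279649 (minus strand) and chr13:4190937-4191236 (plus strand). Aligned without gaps at a shift of 3 bases, with capitals at the same base in both, they read as follows.
Akr1c12: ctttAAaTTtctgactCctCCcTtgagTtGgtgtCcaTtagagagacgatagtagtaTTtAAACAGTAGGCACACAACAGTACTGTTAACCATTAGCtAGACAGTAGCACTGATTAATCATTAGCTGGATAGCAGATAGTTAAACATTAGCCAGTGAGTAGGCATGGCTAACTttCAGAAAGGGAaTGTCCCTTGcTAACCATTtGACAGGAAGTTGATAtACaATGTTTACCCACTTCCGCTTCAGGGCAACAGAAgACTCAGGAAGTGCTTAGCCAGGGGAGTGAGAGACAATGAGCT
Akr1c13: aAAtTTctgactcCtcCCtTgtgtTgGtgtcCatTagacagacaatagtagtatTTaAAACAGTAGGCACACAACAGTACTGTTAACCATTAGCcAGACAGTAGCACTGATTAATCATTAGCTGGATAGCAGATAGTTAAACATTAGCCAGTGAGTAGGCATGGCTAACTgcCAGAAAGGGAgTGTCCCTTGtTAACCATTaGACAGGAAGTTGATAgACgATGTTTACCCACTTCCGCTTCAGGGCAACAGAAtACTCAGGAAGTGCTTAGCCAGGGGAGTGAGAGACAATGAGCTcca
They share 245 of 297 aligned positions (82.5%), with an unbroken run of 75 bases.

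Akr1c20 had the highest fold change of the members and among the lowest counts, with 21, 23 and 13 in the libraries labelled Lpar3-/- and 8, 6 and 5 in WT. Its level was 1.13 ± 0.353 CPM in the libraries labelled Lpar3-/- and 0.370 ± 0.0756 CPM in WT (SD, n = 3 each). The groups did not overlap, and the log2 fold change of 1.59 had an SE of 0.44 (95% interval 0.62 to 2.55, edgeR adjusted p = 0.216).

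The abundant steroid enzymes of the cluster were uneven within WT. Akr1c14, a hydroxysteroid dehydrogenase, had 176, 220 and 182 CPM in the libraries labelled Lpar3-/- and 160, 301 and 282 CPM in WT (log2 fold change -0.37, SE 0.18, edgeR adjusted p = 0.595). WT replicate 1 lay below each library labelled Lpar3-/- and the other WT libraries above them. Without it the log2 fold change was -0.60 and the gene was called (edgeR adjusted p = 0.0154). Akr1c18, which inactivates progesterone, had 56.7, 61.7 and 60.3 CPM in the libraries labelled Lpar3-/- and 48.9, 99.0 and 49.6 CPM in WT, where WT replicate 2 stood far above the rest. Akr1c21, the most abundant Akr1c gene per length at 129 FPKM, had 186, 206 and 191 CPM in the libraries labelled Lpar3-/- and 181, 231 and 178 CPM in WT. Its log2 fold change of -0.018 changed sign without WT replicate 2 (0.11) and without replicate 1 labelled Lpar3-/- (0.014).

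Akr1c19 averaged 23.3 ± 1.04 CPM in the libraries labelled Lpar3-/- and 20.8 ± 1.88 CPM in WT (SD, n = 3 each). Akr1c6 had 1 count in each of 2 libraries, and Akr1cl, which lies on chromosome 1, had 0 counts in all 6.

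**Figure D4:**
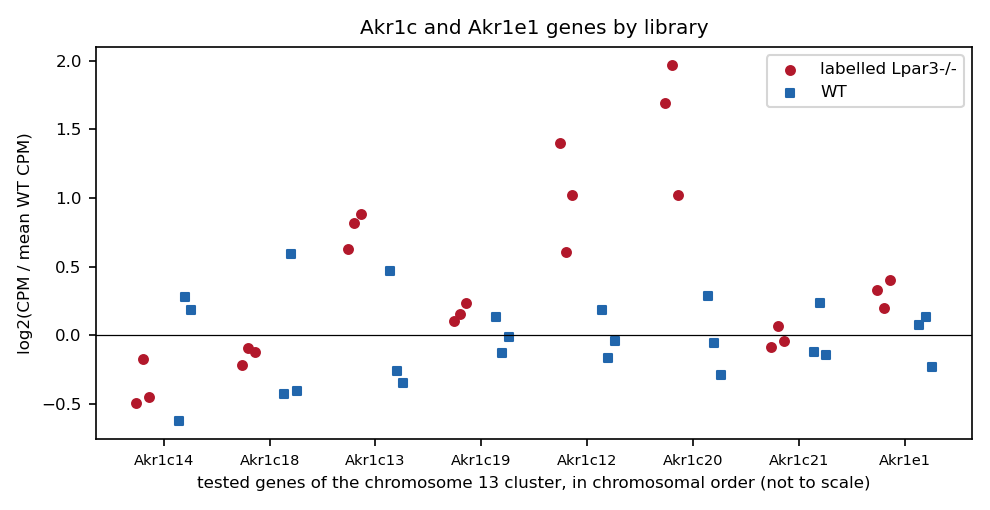
Log2 ratio of each library's CPM to the WT mean for the 8 tested genes of the chromosome 13 cluster in chromosomal order, libraries labelled Lpar3-/- left of WT. Akr1c13, Akr1c12, Akr1c20 and Akr1e1 have all 3 libraries labelled Lpar3-/- above the WT libraries, while in Akr1c14 and Akr1c18 the WT libraries spread widely.

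Akr1d1 encodes the reductase that sets the bent ring shape of bile acids and inactivates steroid hormones, best known from the liver. Akr1d1 (ENSMUSG00000038641, chromosome 6, 37530173 to 37568815, plus strand) had 51.5, 51.6 and 50.1 CPM in the libraries labelled Lpar3-/- and 37.6, 43.4 and 38.5 CPM in WT. The libraries labelled Lpar3-/- were nearly equal and lay above all WT libraries. Its log2 fold change of 0.36 (SE 0.078, 95% interval 0.19 to 0.53) did not pass (edgeR adjusted p = 0.0830). It passed by DESeq2 (adjusted p = 0.0418) and, by edgeR, without WT replicate 2 (adjusted p = 0.0339). The liver marker Alb had 3.87, 3.15 and 3.58 CPM in the libraries labelled Lpar3-/- and 3.44, 1.89 and 1.57 CPM in WT, and Fgb had 0 counts throughout. Of the 6 tested liver markers 4 had a positive fold change, and Ttr (log2 fold change -0.64) and Apoa2 (-1.26) a negative one. The 9 liver markers summed to 2869 to 3013 CPM in the libraries labelled Lpar3-/- and 2577 to 2789 CPM in WT, nearly all of it Cyp2e1, which mouse kidney itself expresses, and their part in the result was not tested.

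Across the 13 members with an unadjusted p under 0.05, WT replicate 1 was the WT library nearest to the mean of the libraries labelled Lpar3-/- for 7, WT replicate 2 for 5 and WT replicate 3 for 1. Without WT replicate 1 edgeR called 5 members, namely Aldh3b1, Aldh3a2, Akr1c14, Aldh1a7 and Akr1c13. Without any one library labelled Lpar3-/- it called 0 members. The number called over all tested genes, 57 with every library, also changed with the library left out. Its range is given at the end, so these member counts are not particular to the members.

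Genes of the pathways around these enzymes were read from 6 lists of 124 genes. EdgeR called 0 of the tested genes of any list, where 0.374% of all tested genes were called. Limma-voom called 0 and DESeq2 called 7, out of 171 genes that DESeq2 called in all. Unadjusted p-values under 0.05 were found for 6 of 25 tested genes of retinoid metabolism, 2 of 10 of the polyol pathway and osmolyte transport, 2 of 10 of ascorbate and glucuronate handling, 8 of 24 folate enzymes, 7 of 18 amino acid enzymes and 4 of 24 other carbonyl enzymes, where 9.18% of all tested genes had one.

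Around retinoic acid synthesis the retinol dehydrogenases had fold changes of both signs. Rdh16 averaged 207 ± 2.001 CPM in the libraries labelled Lpar3-/- and 256 ± 7.12 CPM in WT (log2 fold change -0.31, edgeR adjusted p = 0.0750), and its relative Rdh16f2 147 ± 16.2 and 106 ± 12.7 CPM in the same order (0.47, adjusted p = 0.0788). Rbp4, the retinol carrier of blood, averaged 1.84 ± 0.514 CPM in the libraries labelled Lpar3-/- and 3.87 ± 1.06 CPM in WT (SD, n = 3 each). The list as a whole had 11 positive and 14 negative fold changes, with a median of -0.029.

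In the list around aldose reductase an unadjusted p under 0.05 was found for a pair of osmolyte transporters. Slc6a6, the taurine transporter, averaged 968 ± 35.1 CPM in the libraries labelled Lpar3-/- and 839 ± 41.8 CPM in WT, and Slc5a3, the inositol transporter, 174 ± 12.5 and 133 ± 34.8 CPM in the same order (SD, n = 3 each). Neither passed the test (edgeR adjusted p = 0.368 and 0.431). In the list 7 of 10 fold changes were positive, with a median of 0.057. The transporters Slc14a2 (0.038) and Slc38a2 (-0.0034) were near 0.

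Enzymes that supply the mitochondrial aldehyde dehydrogenases were mostly on the positive side, 14 of 18, with a median of 0.11. Prodh, which starts proline breakdown ahead of Aldh4a1, averaged 701 ± 41.3 CPM in the libraries labelled Lpar3-/- and 527 ± 81.6 CPM in WT (log2 fold change 0.41, edgeR adjusted p = 0.144). Oat, ornithine aminotransferase, averaged 211 ± 6.14 and 165 ± 10.3 CPM in the same order (0.35, adjusted p = 0.0641). Bbox1, which acts after Aldh9a1 in carnitine synthesis, averaged 2.11 ± 0.150 CPM in the libraries labelled Lpar3-/- and 5.48 ± 1.71 CPM in WT (-1.38, adjusted p = 0.0588).

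Fold changes of the folate enzymes were positive for 17 of 24, and their median was 0.090. Ftcd, which links histidine breakdown to folate, averaged 65.9 ± 3.71 CPM in the libraries labelled Lpar3-/- and 39.9 ± 12.4 CPM in WT, Amt of glycine cleavage 102 ± 3.96 and 84.0 ± 1.67 CPM, and Dmgdh 178 ± 7.94 and 155 ± 11.9 CPM in the same order (SD, n = 3 each; edgeR adjusted p = 0.105, 0.121 and 0.413). Of the other carbonyl enzymes 12 were positive and 12 negative. The carbonyl reductases Cbr2 (9.85 ± 1.55 and 5.73 ± 1.11 CPM) and Cbr1 (59.3 ± 0.839 and 49.5 ± 2.81 CPM) had the lowest p, again with the libraries labelled Lpar3-/- first (edgeR adjusted p = 0.122 and 0.201). In the ascorbate list Gusb, the lysosomal glucuronidase, had the lowest p, with 66.5 ± 17.0 CPM in the libraries labelled Lpar3-/- and 137 ± 43.4 CPM in WT (edgeR adjusted p = 0.0767). Slc23a1, a vitamin C transporter, averaged 363 ± 1.29 and 317 ± 12.0 CPM in the same order (adjusted p = 0.349).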

How the data were processed

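Poly-A RNA of 6 hypoxic kidneys was sequenced, 3 labelled Lpar3-/- and 3 WT, per the labels' protocols. HISAT2 2.0.5, featureCounts 1.5.0-p3, DESeq2 1.20.0 and GRCm38 are named in the submitters' processing notes. The sources used here do not give strand setting, annotation release or treatment of multi-mapped reads. The authors deposited raw counts per gene and FPKM values, which equalled counts divided by gene length and a size-factor-scaled depth (largest relative deviation 1.78e-08). Of 54909 rows, 377 without a name (0.259% to 0.362% of counts) were left out. The main test was edgeR 4.0.16 (R 4.3.3), quasi-likelihood, default filter, TMM, no covariate, Benjamini-Hochberg adjustment over all 15225 tested genes; adjusted p under 0.05 is a call. SE and 95% intervals derive from the F statistic, and CPM use TMM-scaled depth. The between-replicate coefficient of variation was 10.5% (common dispersion). Alternatives were DESeq2 1.42.0, limma 3.58.1 (voom, and log2(FPKM + 1) or log2(FPKM + 0.1), keeping genes whose FPKM averaged 0.1 or more), other normalizations and filters, the replicate block, each library left out and, added after seeing the data, marker covariates. Tests were checked on simulated counts. Transcript stretches of 50 bases were compared in GENCODE M21 (same build). Members given library by library were those called, with an unadjusted p under 0.05, among the 4 highest by FPKM of their family, or on the chromosome of Lpar3; Aldh1a2, Aldh1a3, Aldh3a1, Akr1b10 and Akr1c18 were given likewise, chosen after their values were seen. Pathway and marker genes were named by lowest p, apart from markers chosen for the tissue they define. One gene of the name pattern is not reported here. The members and lists were chosen with earlier results of these data known.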

Additional observations from a re-analysis of the deposited data

How the results depend on the processing

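The edgeR count of 57 called genes was 171 by DESeq2, 520 without a filter, 9 and 13 by limma on log2(FPKM + 1) and log2(FPKM + 0.1), 12 to 149 with a library left out, and 6 and 24 with the fat cell and macrophage marker covariates, both chosen after seeing the data. Members called higher (0) were 3 by DESeq2, 5 without a filter, 1 with the replicate block (Aldh1a7, adjusted p = 0.0153, which also passed without a filter) and 0 to 2 with a library left out. Members called lower (1) were 2 by DESeq2, 4 without a filter, 0 by either limma FPKM fit and with either covariate, and 0 to 3 with a library left out. Other pathway genes called (0) were 7 by DESeq2, 13 without a filter, 1 with the replicate block and 0 to 5 with a library left out. With the replicate block 80 genes were called. Deviations of same-numbered libraries correlated at 0.0026, 0.0051 and 0.051 over all tested genes. Those of differently numbered libraries correlated at -0.048 to 0.040. These values show no pairing over all genes, and a factor shared by number in some genes was not tested. With a library left out the log2 fold change took both signs for Akr1c21 (-0.081 to 0.11, and 0.014 without labelled Lpar3-/- replicate 1), Adh7 (-0.30 to 0.27), Aldh1l1 (-0.066 to 0.074) and Aldh6a1 (-0.0038 to 0.11). With the fat cell and macrophage covariates its sign changed for Akr1a1 (0.019 and 0.051), Akr7a5 (0.025 and 0.033), Akr1c21 (0.12 and 0.23) and Aldh1l1 (-0.0082 and -0.13). The causes were not tested. Including rows of any biotype, 44 in place of 43 genes, left 0 called higher and 1 lower. Counts under about 50 a library limit Akr1c12, Akr1c20, Aldh1l2, Aldh18a1 and Adh7.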
